A study of Mus musculus with 6 samples.

Results

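Smim3, Trnp1 and Syngr2 were 3 of the 55335 genes counted in mouse aorta, and 3 of the 16612 genes with enough reads to be tested. They were chosen by their measured levels, which were higher at 6 months than at 6 weeks, with 1 aged library as an exception for Syngr2. Their difference between the ages is therefore given as a description, without a test. RNA was sequenced from the aorta of wild-type C57BL/6 mice aged 6 weeks (young, 3 libraries) and 6 months (aged, 3 libraries), which the labels write as c57b6l. The methods of the study describe all mice as male and state that the fat around the vessel was dissected away. The genotype is given as WT for all, and the labels name no treatment. All 3 genes were found in the file under 1 identifier each, and all 3 passed the filter on low counts.

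The 3 genes are not known for a common function. Smim3 encodes a very small protein with a single span through the membrane. Trnp1 encodes a nuclear protein that binds TMF1 and is best known from the embryonic cerebral cortex, where its level affects whether neural progenitors keep dividing or form neurons. Syngr2, also called cellugyrin, encodes a synaptogyrin found outside neurons. Synaptogyrins and synaptophysins are related proteins that cross the vesicle membrane several times, and the neuronal members sit in synaptic vesicles while cellugyrin sits in small transport vesicles of many cell types.

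Promoter sequence is shown for the members that RefSeq matched, to set side by side the common motifs before their start sites. Of the 3 genes, 2 matched, and Smim3 did not. The 250 bases before the start of Trnp1 lie at chr4:133498551-133498800 on the minus strand, and those of Syngr2 at chr11:117809417-117809666 on the plus strand (RefSeq, GRCm38.p6). Capitals mark a GC box (GGGCGG), the motif bound by SP1 and related factors, or a CCAAT box (CCAAT), each searched on both strands.
Trnp1: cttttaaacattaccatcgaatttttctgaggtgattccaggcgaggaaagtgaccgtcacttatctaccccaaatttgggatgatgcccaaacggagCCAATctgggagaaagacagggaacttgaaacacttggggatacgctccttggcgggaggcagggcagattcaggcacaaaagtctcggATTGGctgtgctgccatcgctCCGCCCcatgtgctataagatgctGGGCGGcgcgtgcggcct
Syngr2: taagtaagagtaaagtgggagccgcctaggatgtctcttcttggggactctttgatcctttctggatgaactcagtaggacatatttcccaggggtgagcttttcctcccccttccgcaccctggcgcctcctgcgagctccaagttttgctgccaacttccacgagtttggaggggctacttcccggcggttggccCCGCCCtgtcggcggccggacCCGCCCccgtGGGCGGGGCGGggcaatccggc

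The Trnp1 window held 2 GC boxes and 2 CCAAT boxes, and at least 2 were found in 16.7% and 10.1% of the 32851 promoters of the same length. The Syngr2 window held 4 GC boxes, of which a neighbouring pair shared 1 base, and 4.09% of promoters held at least 4. It held no CCAAT box, a motif present in 33.8% of promoters. A GC box was present in 32.7% of them. Neither window matched the E-box CACGTG (6.02% of promoters), the cyclic AMP element TGACGTCA (1.55%), the AP-1 motif TGANTCA (6.75%), the TATA box TATAAA (12.4%) or the C/EBP pair TTGCNNAA (9.56%). The E2F motif TTTCGCGC (0.256%) and the EGR motif GCGTGGGCG (0.536%) were not found either. The GC content was 53.2% for Trnp1 and 62.0% for Syngr2, against a median of 52.4% over all promoters. The GC box was thus the single motif of this search found in both windows, and it is common in promoters generally.

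Total counts lay between 31049632 and 45832185 per library, which puts at least 239 reads behind every value of the 3 genes. Smooth muscle markers summed to between 31763 and 44695 CPM (reads of a gene relative to all reads of its library, with library sizes corrected by TMM), above every other list of markers in each library. Reads from the mitochondrial genome made up 14.9% to 21.2% of young and 23.1% to 30.4% of aged libraries. Some libraries stood apart from their group. Young replicate 1 had Xist, the RNA of the inactive X chromosome, at 305.6 CPM against 0.636 or less elsewhere, although all mice are described as male. Its level of Ddx3y, a gene of the Y chromosome, was 1.09 CPM against 44.8 to 65.6 CPM elsewhere. It also differed in genes of the circadian clock, with Arntl at 49.8 CPM against 0.747 to 8.14 and Dbp at 10.1 CPM against 125 to 436 elsewhere. Aged replicate 2 lay at -13.4 on the first principal component, nearer to young replicate 1 at -10.3 than to the other aged libraries at 62.7 and 53.8. The values of the 3 genes are given with and without these libraries. Here n counts libraries. Vessels were collected from each mouse, but the sources do not state that each library came from 1 mouse.

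Smim3 was at 13.6, 13.2 and 14.0 CPM in young replicates 1, 2 and 3. It was at 31.6, 42.0 and 31.6 CPM in aged replicates 1, 2 and 3. The young libraries were nearly level and every aged library lay well above them, with the lowest aged value 2.26 times the highest young value. The means were 13.6 ± 0.369 CPM in young and 35.1 ± 5.98 CPM in aged aorta (SD, n = 3 each), a ratio of 2.58. On the log2 scale the edgeR fit gave a difference of 1.37 with a standard error of 0.17. The spread of the young libraries, a coefficient of variation of 2.71%, was below the 4.33% that counting error alone gives, while that of the aged libraries, 17.1%, exceeded the 2.92% of counting error. Aged replicate 2 carried that spread, at 1.33 times the mean of the other aged libraries, and without it the ratio of means was 2.32. Without young replicate 1 the ratio stayed at 2.58.

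Trnp1 was at 10.9, 7.41 and 6.96 CPM in young replicates 1, 2 and 3. It was at 29.9, 28.6 and 24.5 CPM in aged replicates 1, 2 and 3. The groups stood clearly apart, with the lowest aged value 2.25 times the highest young value, and here the young group was the uneven one. The means were 8.43 ± 2.15 CPM in young and 27.7 ± 2.82 CPM in aged aorta (SD, n = 3 each), a ratio of 3.29 and a log2 difference of 1.71 with a standard error of 0.23. Young replicate 1, the library with Xist reads, was above the other young libraries beyond counting error, since its 95% Poisson interval of 9.99 to 11.9 CPM did not reach theirs, which ended at 8.38 CPM or below. Without it the ratio of means was 3.85. Aged replicate 2 was not unusual for this gene, at 1.05 times the mean of the other aged libraries, and the ratio without it was 3.23.

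Syngr2 was at 15.5, 13.9 and 14.7 CPM in young replicates 1, 2 and 3. It was at 63.2, 17.1 and 55.0 CPM in aged replicates 1, 2 and 3. Aged replicates 1 and 3 were far above the young libraries, and aged replicate 2 stayed at their level. The means were 14.7 ± 0.792 CPM in young and 45.1 ± 24.6 CPM in aged aorta (SD, n = 3 each), a ratio of 3.06 and a log2 difference of 1.61 with a standard error of 0.44. Aged replicate 2 was at 1.16 times the young mean and at 0.289 times the mean of the other aged libraries, and without it the ratio was 4.01. Without young replicate 1 it was 3.15. The groups did not overlap in CPM, but the lowest aged value was only 1.10 times the highest young value, and the intervals of counting error met (15.8 to 18.5 CPM in aged replicate 2, 14.4 to 16.7 CPM in young replicate 1). On the FPKM scale, which also divides by gene length and was computed by the authors, aged replicate 2 was at 8.21 and inside the young range of 7.64 to 8.28. The coefficient of variation was 5.38% in young and 54.5% in aged aorta, where counting error gives 4.15% and 2.64%.

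**Figure D1:**
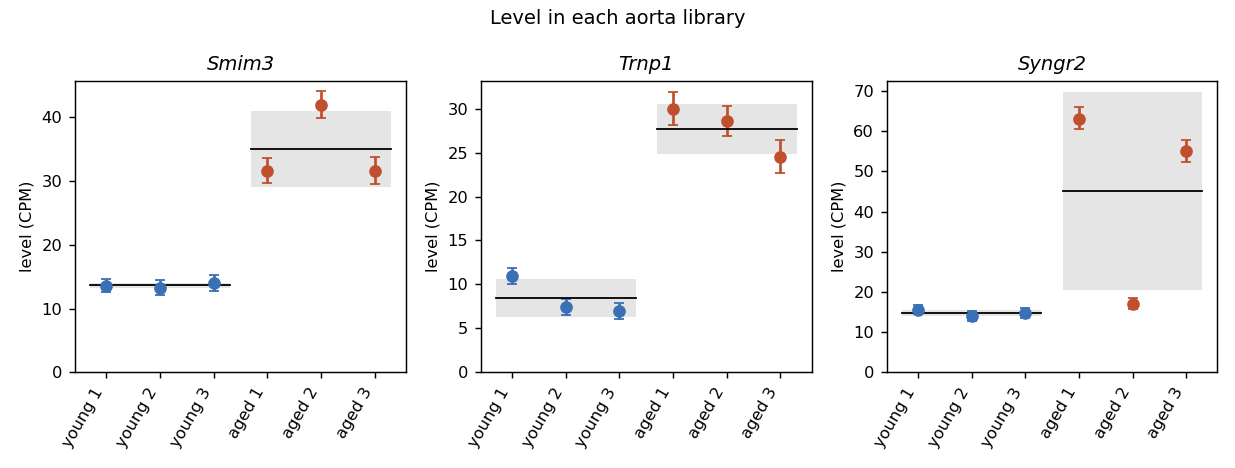
The vertical axis gives the level in CPM from 0 for Smim3, Trnp1 and Syngr2, with 1 point per library, 95% Poisson intervals of the count as bars, group means as lines and 1 SD as shading. All aged points of Smim3 and Trnp1 lie above the young points, while for Syngr2 aged replicate 2, at 17.1 CPM, sits beside the young libraries.

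All 3 genes had CPM in every aged library above every young library in the contrast they were chosen on, and 7.74% of all genes tested did so while 8.78% lay below. Over all genes edgeR called 0 of 16612 (0%) at an adjusted p below 0.05, with 1723 (10.4%) at an unadjusted p below 0.05, and DESeq2 called 305 of 15976 (1.91%). Larger log2 fold changes than those of Smim3, Trnp1 and Syngr2 were found for 3.94%, 1.89% and 2.36% of the tested genes. Without both libraries that stand apart, young replicate 1 and aged replicate 2, the log2 differences were 1.22 for Smim3, 1.92 for Trnp1 and 2.05 for Syngr2. With the genes of the mitochondrial genome removed before normalization they were 1.36, 1.71 and 1.60, close to the values with them.

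Compared per length, as FPKM, the 3 genes kept 1 order in the young libraries. Smim3 was lowest at 1.94 ± 0.0853, Trnp1 followed at 4.94 ± 1.13 and Syngr2 was highest at 8.05 ± 0.355 FPKM (SD, n = 3 each). In aged aorta Smim3 was at 4.30 ± 0.824, Trnp1 at 14.0 ± 1.85 and Syngr2 at 21.2 ± 11.5 FPKM (SD, n = 3 each). In aged replicate 2 the order of the upper pair turned, with Trnp1 at 14.8 and Syngr2 at 8.21 FPKM. Over all libraries the mean FPKM of Smim3 exceeded that of 53.2% of tested genes, that of Trnp1 79.7% and that of Syngr2 86.3%. A ratio between members within a library does not depend on how libraries are scaled. Trnp1 over Smim3 was between 2.06 and 3.31 in young and between 2.81 and 3.91 in aged libraries, so the ranges overlapped. Syngr2 over Smim3 was between 4.04 and 4.39 in young libraries and at 7.70, 1.56 and 6.69 in aged replicates 1, 2 and 3, leaving the young range upward in a pair of libraries and downward in the other.

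Likeness of pattern was measured as the root mean square difference, over the 6 libraries, of log2 CPM centred on each gene's own mean, among 14084 tested genes whose mean CPM reached 1. Genes found this way share the difference between the ages with the member by construction, so no test is given for them. Smim3 and Trnp1 differed by 0.31 on this scale, while Syngr2 differed from Smim3 by 0.73 and from Trnp1 by 0.66. The median over all genes was 0.76 for Smim3, 0.95 for Trnp1 and 0.97 for Syngr2. Smim3 and Trnp1 thus ran closer to each other than either did to Syngr2. As Syngr2 was chosen with 1 aged library as an exception, this largely follows from the choice and is not a test.

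The genes most like Smim3 were Olfr920, an odorant receptor gene, at 0.17, Baiap2, an organizer of the actin cytoskeleton, at 0.19, Sult1a1, a sulfotransferase, at 0.19, and Maff, a small Maf transcription factor, at 0.21. Olfr920 was scarce, with 31 to 127 counts per library. Maff was at 12.9, 16.2 and 16.3 CPM in the young and at 32.8, 45.4 and 47.0 CPM in the aged libraries, in order of replicate. The genes most like Trnp1 were Dfna5, which encodes a gasdermin, at 0.16, Sult1a1 again at 0.25, the predicted gene Gm13339 at 0.26, and Knstrn, a kinetochore gene, at 0.27. Gm13339 and Knstrn were scarce too, with 17 to 65 and 14 to 111 counts per library. Dfna5 had the higher young value in replicate 1 as well, at 7.12 CPM against 4.20 and 4.40. It was at 16.7, 13.4 and 15.1 CPM in aged replicates 1, 2 and 3. Sult1a1, on both lists, was at 24.2 ± 3.59 CPM in young and 60.6 ± 0.951 CPM in aged aorta (SD, n = 3 each).

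The 2 genes nearest to Syngr2 were closer to it than any gene was to Smim3 or Trnp1. Dpt, which encodes the matrix protein dermatopontin of fibroblasts, differed from it by 0.033 and Entpd2, an enzyme that hydrolyses extracellular ATP, by 0.064. Dpt was at 143, 126 and 132 CPM in young replicates 1, 2 and 3 and at 605, 154 and 498 CPM in aged replicates 1, 2 and 3. Entpd2 was at 29.04, 25.7 and 27.4 CPM in the young and at 108, 29.7 and 92.0 CPM in the aged libraries, in the same order. Both repeated the position of aged replicate 2 just above the young libraries. Ndufa4l2, a mitochondrial protein gene, followed at 0.15 and Lpar1, a receptor for lysophosphatidic acid, at 0.15.

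**Figure D2:**
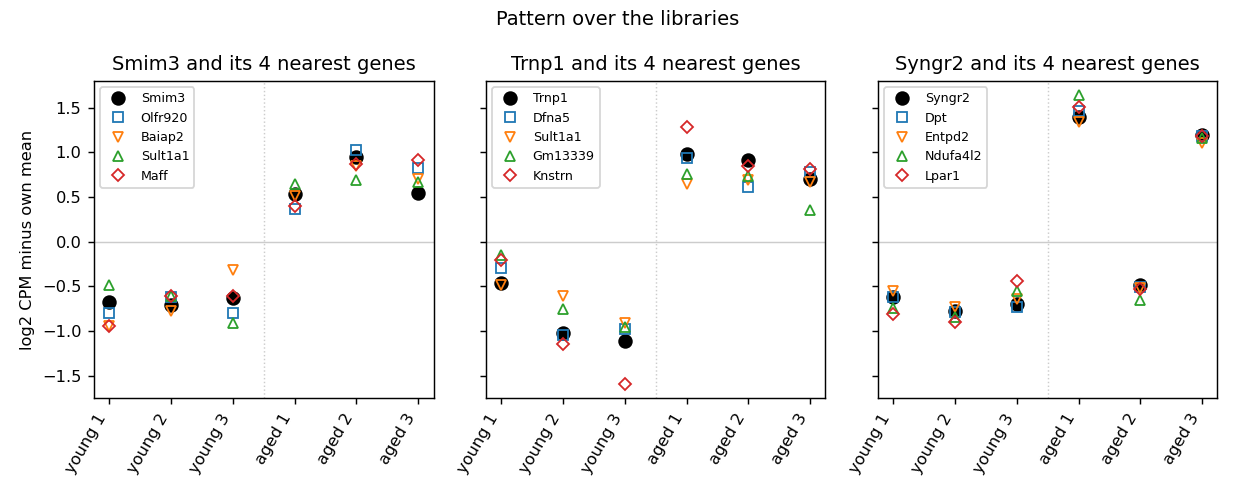
The vertical axis gives log2 CPM minus each gene's own mean over the 6 libraries, with the member as a filled circle and its 4 nearest genes as open symbols. The symbols of Syngr2, Dpt and Entpd2 nearly coincide in every library, and all 5 genes of that panel lie below 0 in aged replicate 2, where Smim3 and Trnp1 and their nearest genes lie above 0.

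Levels of cell type markers were read beside the members, by library. The 10 fibroblast markers summed to between 3893 and 5998 CPM in young libraries and to 10728, 3529 and 7911 CPM in aged replicates 1, 2 and 3. All 10 were lower in aged replicate 2 than in both other aged libraries, as were 6316 of all 16612 tested genes. For 8 of 10 aged replicates 1 and 3 were above every young library, against 17.5% of all tested genes. Over all 3 aged libraries Pdgfra and Dpt were the 2 above the whole young range, against 7.74% of all tested genes. None of the list was called by edgeR and 4 by DESeq2, against 0% and 1.91% of all genes. The 10 macrophage markers had sums of 110.0 to 148 CPM in young libraries and of 497, 154 and 335 CPM in aged replicates 1, 2 and 3, and for 9 of 10 aged replicates 1 and 3 were above every young library. With aged replicate 2 included this held for 5 of 10, against 7.74% of all tested genes. DESeq2 called 5 of the list where edgeR called none. The root mean square difference of Syngr2 from the mean centred log2 level was 0.26 for the fibroblast and 0.24 for the macrophage list. For Smim3 these differences were 0.79 and 0.59, and for Trnp1 0.80 and 0.50. Syngr2 was chosen as high in the aged libraries other than aged replicate 2. Its nearness to lists that are low in that library largely follows from the choice and is not a test. No marker of either list was at 0 in all libraries, and in whole tissue more cells of a type and more RNA per cell cannot be told apart.

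Per 1000 CPM of the fibroblast markers, Syngr2 was at 3.99, 2.96 and 2.45 CPM in young and at 5.89, 4.84 and 6.95 CPM in aged replicates 1, 2 and 3. Relative to this sum all aged values, that of replicate 2 included, lay above all young values. A large part of the sum comes from Col1a1 and Col1a2, its most abundant markers over all libraries. They were at 1192 ± 334 and 2315 ± 508 CPM in young and at 1345 ± 604 and 2232 ± 713 CPM in aged aorta (SD, n = 3 each). Dcn, another large part, was at 630 ± 183 CPM in young and 1720 ± 1055 CPM in aged aorta (SD, n = 3 each). It exceeded Col1a1 in aged replicates 1 and 3 but not in aged replicate 2. Dpt, on the same list, differed from Syngr2 in pattern by only 0.033, so the ratio depends on which markers are used. These ratios were added after the values of the libraries had been seen. Per 1000 CPM of the macrophage markers it was at 105 to 133 CPM in young and at 111 to 164 CPM in aged libraries, and the ranges overlapped. In aged replicate 2, Smim3 and Trnp1 were at 11.9 and 8.10 CPM per 1000 CPM of fibroblast markers, against 3.999 and 3.10 or less in every other library. The part of these cell types in the levels of the 3 genes was not tested.

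The adipocyte markers went the other way in aged replicate 2, with a sum of 5047 CPM against 1022 to 2561 CPM elsewhere and Ucp1, of brown fat, at 1422 CPM. Their differences from the members were 1.34 for Smim3, 1.53 for Trnp1 and 1.92 for Syngr2, larger than the medians over genes. Endothelial markers were high in aged replicate 3 alone, at 1873 CPM against 415 to 591 CPM elsewhere. Striated muscle markers were high in young replicate 1 alone, at 349.6 CPM against 87.5 to 100.4 CPM. The median log2 fold change was -0.19 for smooth muscle, 1.47 for fibroblast, 0.71 for endothelial, 1.39 for macrophage, 0.43 for adipocyte and 0.28 for Schwann cell markers. It was -0.78 for striated muscle, 0.09 for mesothelial and epithelial, and -0.37 for the 4 lymphocyte markers with enough reads, against 0.02 over all genes tested. Nkg7 was the marker at 0 in every library.

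**Figure D3:**
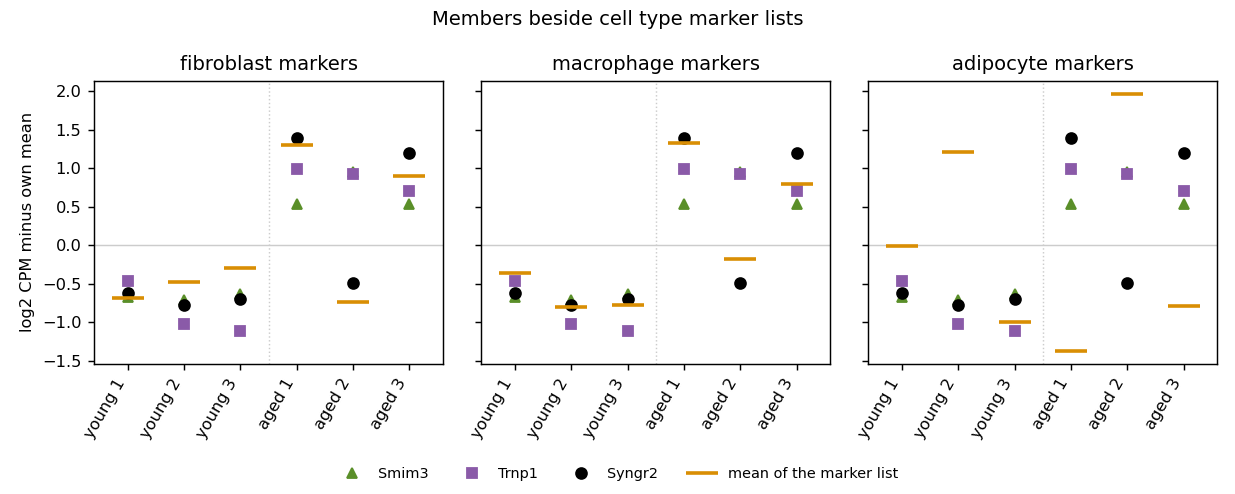
Each panel sets log2 CPM minus its own mean over the 6 libraries for the 3 members (symbols) against the mean of 1 marker list (bars). In aged replicate 2 Syngr2 lies low with the fibroblast and macrophage lists, Smim3 and Trnp1 lie high, and the adipocyte list is at its highest.

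Syngr2 belongs to a family of which 8 genes were in the file, and 5 others had enough reads to be tested. None was called by edgeR. Syp, or synaptophysin, the abundant protein of synaptic vesicles, was at 3.22, 3.74 and 1.72 CPM in young and at 9.45, 6.12 and 6.30 CPM in aged replicates 1, 2 and 3. All its aged values were above the young ones, with a log2 ratio of 1.33 ± 0.36 (SE; edgeR adjusted p 0.377). Unlike Syngr2, Syp was as high in aged replicate 2 as in aged replicate 3. Sypl, or pantophysin, the family member of most tissues, was the most abundant per length of the 5 relatives of Syngr2, with 10.5 ± 0.283 FPKM in young and 8.09 ± 0.674 FPKM in aged aorta (SD, n = 3 each). By edgeR its log2 ratio of aged to young was -0.16 ± 0.13 (SE), at an adjusted p of 0.681, and its aged CPM lay below the young in every library.

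The remaining members of the family were scarce. Sypl2, known from the membrane junctions of skeletal muscle, was at 0.834 ± 0.202 CPM in young and 1.22 ± 0.140 CPM in aged aorta (SD, n = 3 each), without overlap. By edgeR its log2 ratio of aged to young was 0.55 ± 0.42 (SE), at an adjusted p of 0.663. Syngr3, a neuronal synaptogyrin, was at 2.20 ± 0.378 and 1.65 ± 0.477 CPM (SD, n = 3 each), with a log2 ratio of -0.41 ± 0.37 (SE; edgeR adjusted p 0.708). Syngr1, the other neuronal synaptogyrin, ranged from 0 to 2.07 CPM in young and reached 4.06 CPM in aged replicate 2 against 0.319 CPM or less in the other aged libraries. Syngr4 and Synpr had at most 7 and 5 counts in any library. In the family 2 of the 5 others were higher and 1 lower in all aged libraries (7.74% and 8.78% of all tested genes), and the median log2 fold change was 0.55. Of these 5, DESeq2 called 1, Syp. The summed CPM of the family without Syngr2 was 95.7 to 99.8 in young and 85.6 to 96.8 in aged libraries. These ranges overlapped, and most of the sum was Sypl.

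**Figure D4:**
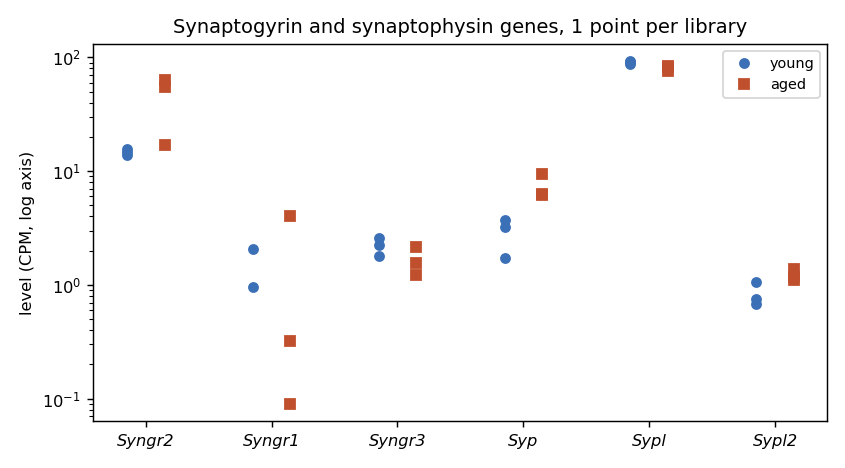
The vertical log axis gives the level in CPM of Syngr2 and the 5 tested relatives, with 1 point per library and circles for young and squares for aged. A value of 0 for Syngr1 in young replicate 3 cannot be drawn on this axis, and Syngr2 has 1 aged point at the young level with the other aged points far above it.

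Other genes with the MARVEL domain that synaptogyrins carry were read beside Syngr2. Of 11 tested, 7 had a positive log2 fold change, and the median was 0.06. In all aged libraries 1 was higher, close to the 7.74% of all tested genes, namely Mal, a raft protein of myelin and epithelia. Mal was at 3.29 ± 0.958 CPM in young and 10.5 ± 9.998 CPM in aged aorta (SD, n = 3 each), with an adjusted p of 0.448 by edgeR. Aged replicate 3 was far above the others, and without it the log2 ratio of Mal was 0.52 in place of 1.67. Cmtm3 had a log2 ratio of 1.32 ± 0.43 (SE; edgeR adjusted p 0.403) and was at 40.05, 13.0 and 27.2 CPM in aged replicates 1, 2 and 3, lowest in replicate 2 like Syngr2. Marveld1 and Myadm were the most abundant, at 537 ± 49.7 and 201 ± 75.8 CPM in young and at 468 ± 24.1 and 213 ± 28.8 CPM in aged aorta (SD, n = 3 each). Neuronal vesicle and nerve genes gave a median of -0.14 over 10 tested genes. In all aged libraries 2 were higher and 3 lower, against 7.74% and 8.78% of all tested genes. Those lower were Vamp1, Syn1 and Sv2a, named after their values were seen, with log2 ratios of -0.65, -0.65 and -0.52 by edgeR, none of them called by edgeR or DESeq2. Those higher were Tubb3, a tubulin of neurons, and Rab3a, a GTPase of vesicle release. Tubb3 was at 0.362 ± 0.282 CPM in young and 2.69 ± 1.25 CPM in aged aorta (SD, n = 3 each, edgeR adjusted p 0.373). Rab3a was at 17.0 ± 1.39 and 24.9 ± 3.596 CPM (SD, n = 3 each). Of the 10, edgeR called none and DESeq2 1, Tubb3, against 0% and 1.91% of all genes. The most abundant were Vamp2 at 169 ± 27.7 and 161 ± 30.4 CPM and Stx1a at 69.4 ± 18.7 and 59.6 ± 8.82 CPM in young and aged aorta (SD, n = 3 each). Snap25, Syt1, Slc17a6, Elavl4 and Th did not reach the filter on low counts, and Dbh was at 0 throughout.

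Smim3 (ENSMUSG00000038059) lies on chromosome 18 of GRCm38 from 60474191 to 60501987 on the minus strand (GENCODE M21), with 2 transcripts and no overlapping gene. None of the nearest tested neighbours was higher in all aged libraries. Dctn4, a dynactin subunit gene 24198 bases away, was at 66.3 ± 0.968 CPM in young and 62.9 ± 4.72 CPM in aged aorta, and Rbm22, a splicing factor gene, at 38.3 ± 3.05 and 38.1 ± 4.36 CPM (SD, n = 3 each). On the other side Iigp1, an interferon-induced GTPase gene, was at 18.03 ± 7.61 and 20.2 ± 3.76 CPM, and the pseudogene BC023105 stayed below 1 CPM and was lower in all aged libraries. Genes named like Smim3 share the small size of the protein that the name describes. Of 16 others tested, 12 had a positive log2 fold change, with a median of 0.09. Smim1, which carries a blood group antigen of red cells, was the single one higher in all aged libraries, against 7.74% of all tested genes. Smim1 was at 11.9 ± 1.07 CPM in young and 16.5 ± 2.28 CPM in aged aorta (SD, n = 3 each). By edgeR its log2 ratio of aged to young was 0.47 ± 0.19 (SE), at an adjusted p of 0.456. Smim5 was at 42.0 ± 9.48 and 30.2 ± 13.3 CPM, Smim14 at 135 ± 8.62 and 132 ± 8.95 CPM, and Smim7 at 69.8 ± 1.64 and 77.3 ± 18.7 CPM (SD, n = 3 each). None of the 16 reached the log2 ratio of Smim3.

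Immediate early genes, which cells switch on quickly after a stimulus, were read beside Smim3 and had a median of -0.01 over 17 tested genes, with 2 higher and 2 lower in all aged libraries, close to the 7.74% and 8.78% of all tested genes. Of the 17, edgeR called none and DESeq2 2, Junb, which was higher, and Atf3, which was lower in all aged libraries. Atf3 was at 70.5 ± 20.9 CPM in young and 20.4 ± 13.0 CPM in aged aorta (SD, n = 3 each). Junb had a log2 fold change of 1.22 and Srf of -0.75 (standard errors 0.30 and 0.17, adjusted p = 0.377 and 0.372 by edgeR). Nr4a1 and Egr1, the most abundant, were at 346 ± 75.5 and 322 ± 149.6 CPM in young and at 214 ± 52.5 and 198 ± 26.0 CPM in aged aorta (SD, n = 3 each).

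Trnp1 (ENSMUSG00000056596) lies on chromosome 4 of GRCm38 from 133491100 to 133498550 on the minus strand (GENCODE M21), with 2 transcripts and no overlapping gene. Its closest tested neighbour, Fam46b, a gene for a poly(A) polymerase that ends 3162 bases beyond the end of Trnp1 on the other strand, was at 6.21 ± 2.67 CPM in young and 18.5 ± 7.61 CPM in aged aorta (SD, n = 3 each). All aged values of Fam46b were above the young ones, with a log2 ratio of 1.58 ± 0.44 (SE; edgeR adjusted p 0.377). On the other side both tested neighbours overlapped between the ages, with Nudc at 73.6 ± 10.3 and 78.5 ± 10.1 CPM and Gpatch3 at 3.11 ± 0.891 and 3.54 ± 0.637 CPM (SD, n = 3 each). Tmf1, the binding partner after which Trnp1 is named, was at 24.9 ± 5.17 and 27.4 ± 1.30 CPM (SD, n = 3 each) and overlapped between the ages.

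Cell cycle genes were listed with Tmf1 because Trnp1 is known for its part in cell division. Of these 16 genes, 13 had a positive log2 fold change, with a median of 1.01 against 0.02 over all genes, and edgeR called none while DESeq2 called 5. In all aged libraries 9 of the 16 were higher and 1 lower, where 7.74% and 8.78% of all tested genes were. Ccnd1, cyclin D1, was at 8.61, 11.0 and 11.0 CPM in young and at 49.3, 23.8 and 45.2 CPM in aged replicates 1, 2 and 3, a log2 ratio of 1.95 ± 0.29 (SE; edgeR adjusted p 0.259). It was called by edgeR without aged replicate 2, at a log2 ratio of 2.21. Ccnb2, a cyclin of mitosis, was at 0.314 ± 0.127 and 1.90 ± 0.542 CPM (SD, n = 3 each), a log2 ratio of 2.59 ± 0.52 (SE; edgeR adjusted p 0.339). The abundant members Ccnd2 and Mcm6 were at 209 ± 9.72 and 69.3 ± 3.13 CPM in young and at 172 ± 16.4 and 59.3 ± 15.5 CPM in aged aorta (SD, n = 3 each). Ccnd1 was lower in aged replicate 2 than in the other aged libraries, which Trnp1 was not.

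Syngr2 (ENSMUSG00000048277) lies on chromosome 11 of GRCm38 from 117809668 to 117814283 on the plus strand (GENCODE M21), with 7 transcripts. It shares its start with Gm20708, an annotated gene on the same strand that runs to 117839904, so reads of the common exons could have been assigned to either. Gm20708 had 296, 93 and 234 counts in young and 193, 332 and 132 counts in aged replicates 1, 2 and 3, against 752, 485, 504, 2099, 645 and 1553 for Syngr2 in the same order. It was highest in aged replicate 2 within the aged group, where Syngr2 was lowest, and at 5.20 ± 2.22 and 6.43 ± 2.13 CPM (SD, n = 3 each) it overlapped between the ages. Tk1, the thymidine kinase of dividing cells, ends 1243 bases away on the other strand and was at 4.63 ± 3.13 and 6.61 ± 0.540 CPM (SD, n = 3 each). Afmid was at 3.04 ± 0.808 and 2.295 ± 0.236 CPM, Tmc6 at 20.9 ± 1.87 and 22.8 ± 6.95 CPM and Tmc8 at 0.909 ± 0.784 and 0.836 ± 0.321 CPM (SD, n = 3 each). No neighbour of Syngr2 was above every young library in both aged replicates 1 and 3.

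The fold changes of the 3 genes were recomputed under 15 other settings, and all stayed positive. As the genes were chosen by their rise in these libraries, the sign was largely fixed in advance and is not a test. Leaving out 1 library gave between 1.22 and 1.44 for Smim3, between 1.60 and 1.95 for Trnp1 and between 1.29 and 2.01 for Syngr2 on the log2 scale. The standard error of Syngr2 fell from 0.44 to 0.16 without aged replicate 2. Syngr2 was chosen with that library as an exception, so this follows from the choice. On log2 FPKM the differences were smaller, and the median of all genes moved to -0.12 with a pseudocount of 1 and to -0.19 with 0.1. Relative to that median, Smim3, Trnp1 and Syngr2 were at 0.96, 1.46 and 1.23 with a pseudocount of 1. With a pseudocount of 0.1 they were at 1.29, 1.69 and 1.37, against 1.35, 1.69 and 1.59 in the edgeR fit.

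**Figure D5:**
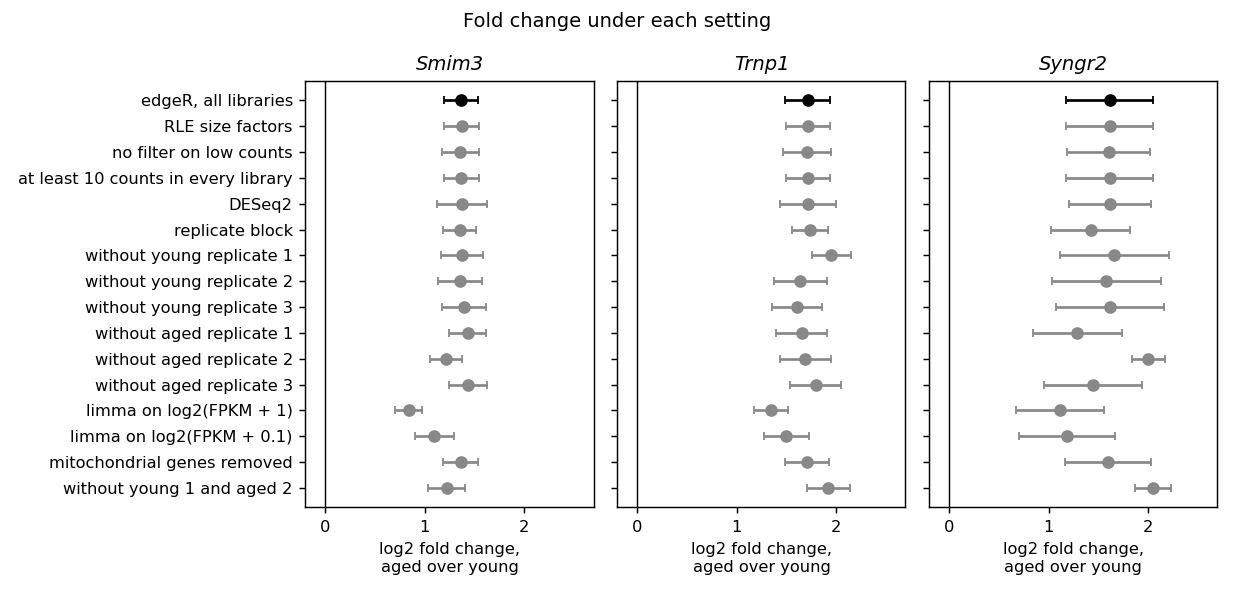
The horizontal axis gives the log2 fold change of aged over young aorta, with points for the estimate and bars for 1 standard error, in 1 row per setting. All points lie above 0, and with FPKM and a pseudocount of 1 Smim3 is at 0.84 and Syngr2 at 1.11.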

How the data were processed

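RNA of 6 aorta libraries was sequenced single-ended from SMARTer mRNA libraries. The authors deposited counts, whole numbers of reads per gene without normalization, and FPKM, which the authors scaled by gene length and library reads. Their processing notes name mm10, and the aligner, counting tool and annotation are not given in the sources used here. Positions come from GENCODE M21 (GRCm38, 55154 of 55335 identifiers matched).

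Genes were kept by filterByExpr (minimum count of 10, minimum total count of 15). Library sizes were corrected by TMM, and quasi-likelihood models were fitted with edgeR 4.0.16 in R 4.3.3. P-values were adjusted over all 16612 genes by the Benjamini-Hochberg method, with a threshold of 0.05. Log2 CPM used a prior count of 2. No p is given for the 3 members.

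Members and lists were chosen with earlier results of these data known. Named are family members, per list the 2 genes of smallest p and the 2 most abundant, the 4 nearest in pattern and the 2 nearest neighbours on each side, with fold changes only above their standard error. Cell type markers are given by list sums and medians, and some genes of this rule and 1 list are not reported here. Ratios to marker sums were added after values were seen.

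Alternatives were RLE, other filters, DESeq2 1.42.0, limma 3.58.1 on FPKM, mitochondrial genes removed, the replicate number as a block, and libraries left out. The fit was tested on simulated data.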

Additional observations from a re-analysis of the deposited data

How the results depend on the processing

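The log2 fold changes of Smim3, Trnp1 and Syngr2 stayed positive under all 15 alternatives, a sign largely fixed by the choice of the genes. They moved by less than the spread between libraries, except with limma on FPKM. There Smim3 was at 0.84 with a pseudocount of 1 and 1.10 with 0.1, and Trnp1 at 1.35 with 1. With 1 library left out the values of Smim3, Trnp1 and Syngr2 lay between 1.22 and 1.44, 1.60 and 1.95, and 1.29 and 2.01. The count of genes called, 0 by edgeR (lowest adjusted p 0.189, 1723 at an unadjusted p below 0.05), became 305 with DESeq2 and ranged from 0 to 110 over fits lacking 1 library, reaching 110 where aged replicate 2 was dropped. Among the listed genes other than the members, 0 were called by edgeR (51 at an unadjusted p below 0.05), while DESeq2 called 18 and fits lacking 1 library called from 0 to 11, again 11 where aged replicate 2 was dropped. For these counts the cause was not tested. Of 47 other named genes with a fold change, 19 passed with DESeq2 and 9 without aged replicate 2, and the other settings called none of them. Those that turned sign were Tie1 (-0.13 without aged replicate 3, in a range up to 1.48 with 1 library left out) and Ucp1 (-1.68 without aged replicate 2, in a range up to 2.39, and -1.80 without young replicate 1 and aged replicate 2 together, a setting added after the data were seen). A replicate block in the edgeR model left 0 genes called and gave 1.35 for Smim3, 1.74 for Trnp1 and 1.42 for Syngr2, and the deviations of equally numbered libraries correlated at 0.0786, 0.117 and 0.0957, not all above the 0.1 asked of paired samples. Depth limits the scarce relatives such as Syngr4 and Synpr more than the members, whose spread in aged aorta exceeded counting error.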
